A study of Homo sapiens with 6 samples.

Results

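AMP-activated protein kinase (AMPK) subunits and the kinases that switch AMPK on were followed in WM3248, an established human line of primary melanoma origin. The 9 genes were the rows of the deposited table named PRKAA1, PRKAA2, PRKAB1, PRKAB2, PRKAG1, PRKAG2, STK11, CAB39 and CAMKK2, of 57688 rows in all. Of these, 6 encode subunits and 3 encode upstream factors. In the siPGC1a group (3 libraries), cells had received an siRNA against PPARGC1A, which encodes the coactivator PGC1-alpha. In the siNC group (3 libraries), they had received a commercial non-targeting siRNA. Cells of either group were transfected by lipofection at 30 nM siRNA, and RNA was taken 48 h later and sequenced from stranded poly(A) libraries. Each condition was 1 cell line with 1 siRNA, and no label tells if replicate libraries represent cultures grown apart. The p-values therefore measure only the spread between these libraries, which may be technical.

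AMPK is a trimer of a catalytic alpha subunit, a scaffolding beta subunit that binds glycogen and a gamma subunit that senses AMP and ADP. Each position can be filled by products of different genes, so that a cell's mixture of trimers depends on which genes it uses. The kinase is turned on when LKB1 (STK11), held active in a complex with a STRAD pseudokinase and the scaffold CAB39, phosphorylates the alpha subunit as energy falls, or when CAMKK2 does so as calcium rises. In muscle, active AMPK is known to phosphorylate PGC1-alpha and to raise its activity, and in many cells it restrains lipid synthesis and mTORC1 and promotes autophagy.

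The libraries held 25150000 to 26430000 reads, as recovered from the steps of the FPKM values (fragments per kilobase of gene, scaled to library depth). PPARGC1A, the targeted gene, stood at 0.354 to 0.413 FPKM in the siPGC1a libraries and at 0.932 to 1.04 FPKM in the siNC libraries, a loss of 60.0% of the mean (limma adjusted p = 0.000234). Of 8 melanocytic markers 7 averaged at least 1 FPKM. The summed level of the 8 was 1415.1 to 1423.8 FPKM in siPGC1a and 1440.2 to 1480.3 FPKM in siNC libraries, most of it from S100B. That sum hides opposite changes. S100B averaged 924 FPKM in siPGC1a and 802 FPKM in siNC, and DCT 253 FPKM in siPGC1a and 394 FPKM in siNC. By limma, 1 of the 8 (S100B) was called higher and 4 (MITF, PMEL, MLANA and DCT) lower, and the part of this in the results that follow was not tested. Summed endothelial markers were 0.155 to 0.222 FPKM in siPGC1a and 0.249 to 0.362 FPKM in siNC libraries, and summed immune markers 1.68 to 2.12 FPKM in siPGC1a and 2.55 to 2.89 FPKM in siNC libraries. LYZ, a myeloid gene, was called lower (limma adjusted p = 0.000779), as was LUM, a fibroblast gene (limma adjusted p = 0.00269). PTPRC, the pan-leukocyte marker, and KRT1, a keratinocyte keratin, were listed at 0 in all 6 libraries. Summed fibroblast markers were 32.3 to 34.9 FPKM in siPGC1a and 38.0 to 38.9 FPKM in siNC libraries, most of it from THY1, and summed keratinocyte markers were 20.7 to 25.8 FPKM in siPGC1a and 20.5 to 21.3 FPKM in siNC libraries, most of it from KRT10.

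The AMPK genes changed in opposite directions. PRKAA1, the main catalytic subunit gene of these cells, rose by 42.7% in mean FPKM, while PRKAB2, a beta subunit gene, fell by 32.8% and CAMKK2 by 10.3%. PRKAB1, PRKAG1, STK11 and CAB39 did not pass the test. PRKAA2 and PRKAG2 had means under 1 FPKM and were not part of the main test. Thus 3 of the 7 tested genes passed an adjusted p of 0.05 in limma, against 48.1% of all 12020 genes tested, so the share among AMPK genes was near that of the transcriptome. By direction, 1 was higher and 2 were lower, against 25.6% and 22.5% of all genes. The groups did not overlap for 5 of the 7, against 57.2% of all genes. In bulk RNA of this kind, fewer cells that use a gene and less of its RNA per cell cannot be told apart.

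**Figure D1:**
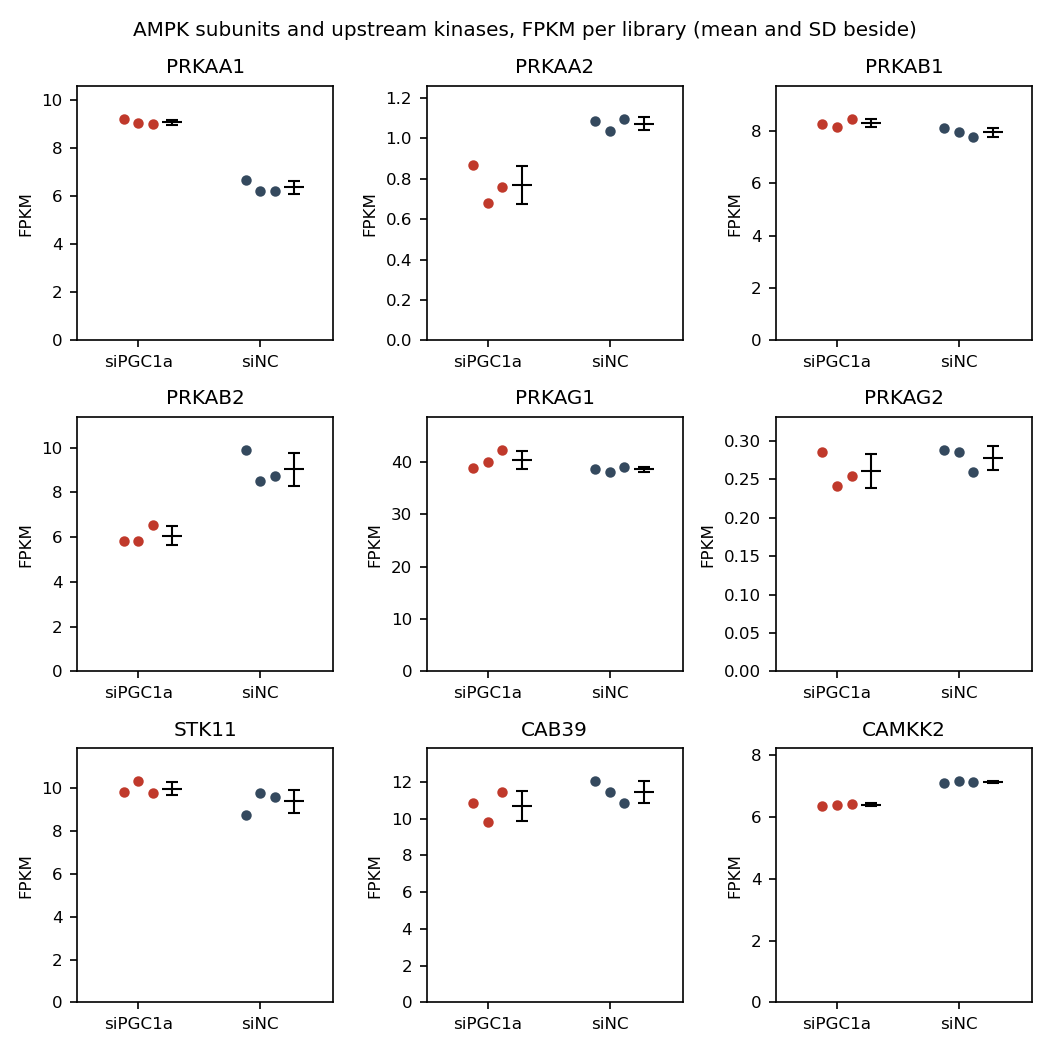
FPKM of the 9 genes in each library (points; siPGC1a in red, siNC in grey-blue), with the mean and SD of 3 libraries beside them and every axis starting at 0. The siPGC1a libraries of PRKAA1 all lie at or above 9.02 FPKM and those of PRKAB2 all at or below 6.56 FPKM, apart from their siNC libraries.

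Of the catalytic subunit genes, PRKAA1 was the more abundant. PRKAA1 (alpha-1, the widely expressed form) had 9.22, 9.05 and 9.02 FPKM in siPGC1a libraries, against 6.67, 6.23 and 6.21 FPKM in siNC libraries. All siPGC1a values lay above all siNC values, and the gap exceeded the spread within either group. The means were 9.09 ± 0.107 FPKM in siPGC1a and 6.37 ± 0.262 FPKM in siNC (SD, n = 3 each), a log2 fold change of 0.45 on the log2(FPKM + 1) scale (SE 0.045, limma adjusted p = 4.56e-05). This call held in each of 14 other settings, with an adjusted p of 0.000981 at most.

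PRKAA2 (alpha-2, the form prominent in muscle) was the less abundant of the pair. It had 0.869, 0.679 and 0.759 FPKM in siPGC1a libraries, against 1.09, 1.03 and 1.09 FPKM in siNC libraries. The siPGC1a values lay wholly below the siNC values, with means of 0.769 ± 0.0954 FPKM in siPGC1a and 1.07 ± 0.0326 FPKM in siNC (SD, n = 3 each, exact two-sided permutation p = 0.1, the smallest that 3 against 3 can give). About 160 to 208 reads per siPGC1a library and 248 to 269 per siNC library stood behind these values. Tested without the filter on low genes, its log2 fold change was -0.23 (SE 0.064, limma adjusted p = 0.0649), which does not pass.

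Because FPKM is per length, the forms of a subunit were set side by side within a library. The authors' gene lengths were not at hand, so levels, shares and ratios between genes rest on lengths that could not be checked. Together the alpha genes came to 10.1, 9.73 and 9.78 FPKM in siPGC1a libraries and to 7.76, 7.27 and 7.30 FPKM in siNC libraries. Of that sum, PRKAA2 made up 8.62, 6.98 and 7.76% in siPGC1a libraries, against 14.0, 14.2 and 15.0% in siNC libraries. The mean share was 7.79 ± 0.818% in siPGC1a and 14.4 ± 0.519% in siNC (SD, n = 3 each), a difference of -6.63 percentage points (exact two-sided permutation p = 0.1, the smallest possible). Neither the sums nor the shares overlapped between the groups.

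The promoter of PRKAA1 is shown because this gene had the largest rise among the 9. It lies at chr5:40798128-40798427 on the minus strand of GRCh38.p14 (RefSeq), the capitals mark the 50 bases from the annotated start onward, and the window is 77.0% G or C with 36 CpG dinucleotides.

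PRKAA1 promoter: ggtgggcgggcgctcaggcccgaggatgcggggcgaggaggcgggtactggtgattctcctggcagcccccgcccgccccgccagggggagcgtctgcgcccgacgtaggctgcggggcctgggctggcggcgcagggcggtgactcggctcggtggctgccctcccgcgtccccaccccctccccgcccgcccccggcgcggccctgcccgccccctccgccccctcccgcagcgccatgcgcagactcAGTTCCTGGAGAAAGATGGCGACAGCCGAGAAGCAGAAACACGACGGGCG

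Of the beta subunit genes, only PRKAB2 passed the test. PRKAB2 (beta-2) had 5.83, 5.82 and 6.56 FPKM in siPGC1a libraries, against 9.88, 8.49 and 8.72 FPKM in siNC libraries. The highest siPGC1a library was below the lowest siNC library. The means were 6.07 ± 0.423 FPKM in siPGC1a and 9.03 ± 0.748 FPKM in siNC (SD, n = 3 each), a log2 fold change of -0.50 (SE 0.064, limma adjusted p = 0.000212), and the call held in each of 14 other settings with an adjusted p of 0.0059 at most.

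PRKAB1 (beta-1) had 8.26, 8.14 and 8.44 FPKM in siPGC1a libraries and 8.12, 7.95 and 7.77 FPKM in siNC libraries. The lowest siPGC1a value was only just above the highest siNC value, and the log2 fold change of 0.05 did not pass (95% interval -0.04 to 0.15, limma adjusted p = 0.321). An RNA annotated on the other strand overlaps PRKAB1 by 137 bases.

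In FPKM, the order of the beta genes was therefore not the same in the groups. PRKAB1 was above PRKAB2 in each siPGC1a library and below it in each siNC library. That order depends on the gene lengths used for the FPKM. PRKAB2 made up 41.4, 41.7 and 43.7% of the summed beta FPKM in siPGC1a libraries, against 54.9, 51.6 and 52.9% in siNC libraries. The mean shares were 42.3 ± 1.28% in siPGC1a and 53.1 ± 1.64% in siNC (SD, n = 3 each), a difference of -10.9 percentage points (exact two-sided permutation p = 0.1, the smallest possible). The beta sum itself was 14.1, 14.0 and 15.0 FPKM in siPGC1a libraries, against 18.0, 16.4 and 16.5 FPKM in siNC libraries, with no overlap.

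**Figure D2:**
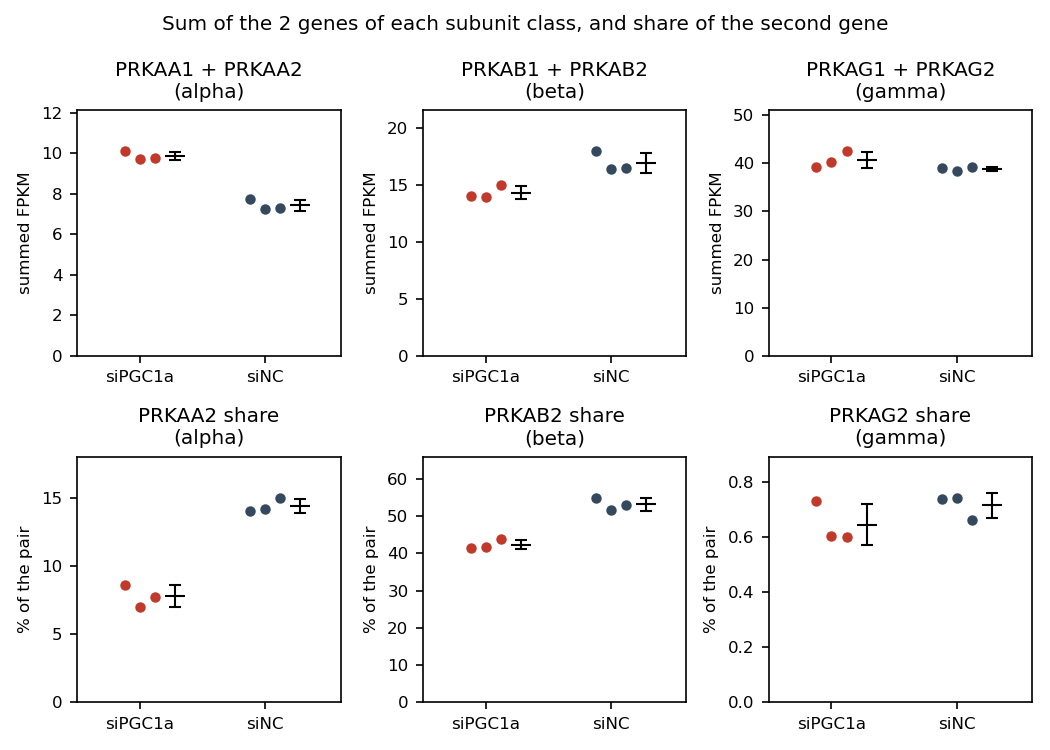
Upper panels show the summed FPKM of the genes of each subunit class per library, lower panels the percentage of that sum held by PRKAA2, PRKAB2 or PRKAG2 (points, siPGC1a left and siNC right; mean and SD of 3 libraries beside). The PRKAA2 and PRKAB2 shares lie lower in siPGC1a with no overlap, at means of 7.79% and 42.3% against 14.4% and 53.1% in siNC, while the PRKAG2 shares overlap.

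The gamma position was held almost wholly by PRKAG1 (gamma-1), the most abundant of the 9 genes. It had 38.9, 39.9 and 42.3 FPKM in siPGC1a libraries and 38.7, 38.1 and 39.0 FPKM in siNC libraries, and the groups overlapped (log2 fold change 0.06, 95% interval -0.03 to 0.16, limma adjusted p = 0.237). DDN-AS1, on the other strand, overlaps it by 532 bases.

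PRKAG2 (gamma-2, the form mutated in an inherited heart disease) had 0.286, 0.242 and 0.255 FPKM in siPGC1a libraries and 0.288, 0.285 and 0.260 FPKM in siNC libraries, from about 41 to 51 reads per library. Those values overlapped (exact two-sided permutation p = 0.3, n = 3 each). Its share of the gamma sum was 0.644 ± 0.0743% in siPGC1a and 0.714 ± 0.0448% in siNC (SD, n = 3 each). PRKAG3, the gamma form of skeletal muscle, was listed at 0 in all 6 libraries. PRKAG2-AS1, on the other strand, overlaps PRKAG2 by 84 bases.

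Set against each other within a library, beta and gamma transcripts stood in lower ratio to alpha transcripts in siPGC1a. Summed beta over summed alpha FPKM was 1.40, 1.44 and 1.53 in siPGC1a libraries, against 2.32, 2.26 and 2.26 in siNC libraries. Summed gamma over summed alpha FPKM was 3.89, 4.13 and 4.35 in siPGC1a libraries, against 5.03, 5.29 and 5.38 in siNC libraries. By FPKM, and so by the gene lengths used, alpha was the lowest class in every library. Neither ratio overlapped between the groups (exact two-sided permutation p = 0.1 for each, n = 3 each). Gamma over beta lay the other way, at 2.83 ± 0.0484 in siPGC1a against 2.29 ± 0.113 in siNC (SD, n = 3 each, exact two-sided permutation p = 0.1). All of these ratios are formed from the values given above, chiefly the PRKAA1 and PRKAB2 differences, and add no independent result. They are ratios of transcripts, and protein was not analysed here.

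Among the upstream kinases only CAMKK2, the calcium-activated kinase of the alpha subunit, passed the test. It had 6.35, 6.40 and 6.44 FPKM in siPGC1a libraries, against 7.10, 7.16 and 7.12 FPKM in siNC libraries. The values within each group were very close, the groups did not overlap, and the difference was small (log2 fold change -0.14, SE 0.041, limma adjusted p = 0.0203). The call was lost without siPGC1a replicate 1 (adjusted p = 0.0518), without siNC replicate 2 (0.061) and without siNC replicate 3 (0.0708), in a range of 0.0102 to 0.0708 by limma over 14 settings.

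STK11, which encodes LKB1, had 9.82, 10.3 and 9.78 FPKM in siPGC1a libraries and 8.77, 9.77 and 9.62 FPKM in siNC libraries. The lowest siPGC1a library was barely above the highest siNC library, and the log2 fold change of 0.08 did not pass (95% interval -0.03 to 0.19, limma adjusted p = 0.212). CBARP, on the other strand, overlaps STK11 by 149 bases.

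CAB39, the scaffold that holds LKB1 active, had 10.9, 9.80 and 11.4 FPKM in siPGC1a libraries and 12.0, 11.5 and 10.9 FPKM in siNC libraries. These overlapped, and the log2 fold change was -0.09 (95% interval -0.23 to 0.04, limma adjusted p = 0.233).

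Ranked by mean FPKM, siPGC1a libraries gave PRKAG1, CAB39, STK11, PRKAA1, PRKAB1, CAMKK2, PRKAB2, PRKAA2 and PRKAG2, and there CAB39 and STK11 overlapped, as did CAMKK2 and PRKAB2. In siNC libraries the order was PRKAG1, CAB39, STK11, PRKAB2, PRKAB1, CAMKK2, PRKAA1, PRKAA2 and PRKAG2, and only STK11 and PRKAB2 overlapped as neighbours. PRKAA1 was the fourth gene in siPGC1a and the seventh in siNC, and PRKAB2 the reverse. The genes whose log2 values followed PRKAA1 most closely over the 6 libraries were MTF1 (Pearson r = 0.9989), STX6 (0.9985) and DDX55 (0.9981). As 1062 of 12019 genes had r over 0.95, and all 6 points share the group difference, this is a description of the 6 libraries alone.

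The longest annotated 3' UTRs of the 9 genes were searched for ACACCT and GTCTTC, a pair of 6-base words that an earlier look at these same data had picked out, so a match here is a description and no independent evidence. PRKAA2, PRKAB2 and CAB39 hold both words, CAMKK2 and STK11 hold GTCTTC, and PRKAA1, PRKAB1, PRKAG1 and PRKAG2 hold neither. The 3 of 9 genes with ACACCT (33.3%) compare with 33.6% of 10794 tested genes with a 3' UTR, 22.7% of those called higher and 48.6% of those called lower. For GTCTTC the 5 of 9 compare with 34.4% of all, 26.9% of the higher and 42.9% of the lower. Of the 9, PRKAA2, which holds both words, and PRKAG2, which holds neither, were not among the tested genes. Longer 3' UTRs hold more words, and their median length was 1098 bases among higher and 1774 bases among lower genes, with 7622 bases for PRKAA2, 4459 for PRKAB2 and 3399 for PRKAA1.

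A selection of the sites is shown, chosen with the directions of these genes known, so it is a description only. STK11, whose siPGC1a values lay above its siNC values, also carries GTCTTC, at 60, and that site is not printed. Also left out are the GTCTTC sites of PRKAA2 and CAB39 and the ACACCT site of CAB39 at 386, while all sites of PRKAB2 and CAMKK2 are printed. PRKAA1 carries neither word, and the fall of PRKAA2 did not pass. The printed sites are read from GENCODE v29 transcripts, capitals mark the word, and the number is the place of its first base counted from the stop codon.
PRKAB2 at 798: gcagaatgcagaACACCTacatttttgttt
PRKAB2 at 4373: ctggactctgacACACCTggaaattatatg
PRKAB2 at 3473: ccagttcttgctGTCTTCtaccaggggctg
PRKAA2 at 337: ggtggtttggcaACACCTccttgctttgct
PRKAA2 at 2983: acttgtttcatgACACCTtggttttcttaa
CAB39 at 728: gagctagcaatgACACCTtgcatttcattt
CAB39 at 1051: gctcagtcagccACACCTtcctgcatccta
CAMKK2 at 2671: cctgagaggcagGTCTTCcgtcctcagagc
CAMKK2 at 2753: tcgctctcacttGTCTTCcagcggggagct

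CAB39 holds ACACCT at 3 places, and PRKAB2 and PRKAA2 hold it at 2 places each. The siPGC1a mean was 0.934 times the siNC mean for CAB39, 0.672 times for PRKAB2 and 0.717 times for PRKAA2. The part of these words in the differences was not tested.

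**Figure D3:**
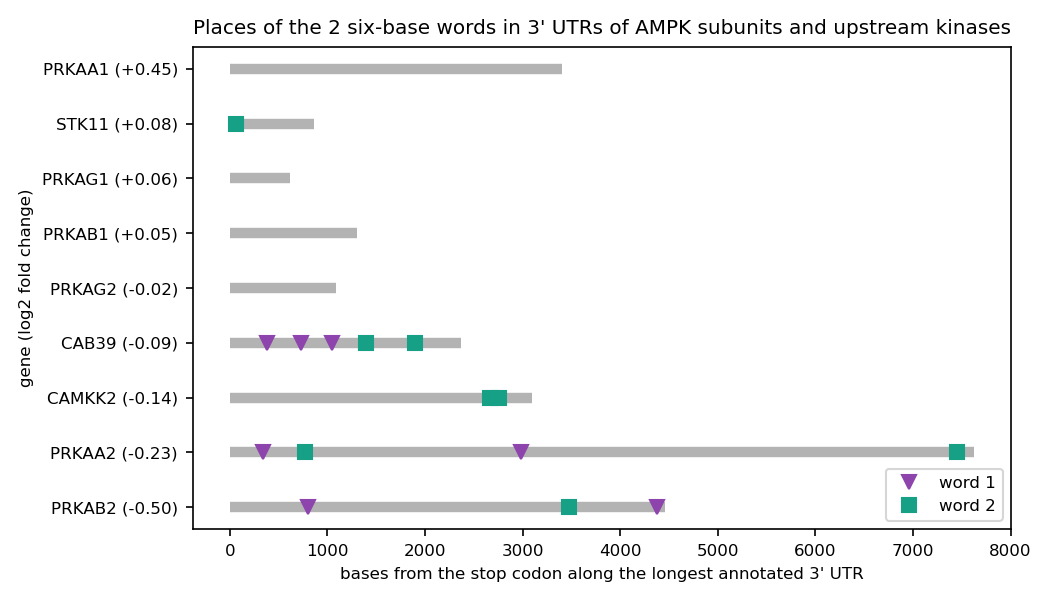
Longest annotated 3' UTR of each of the 9 genes (grey bar, bases from the stop codon), ordered from the highest log2 fold change at the top to the lowest at the bottom, with the places of ACACCT (word 1, triangles) and GTCTTC (word 2, squares). The 4 genes without either word include PRKAA1, and the gene with the lowest fold change, PRKAB2, holds both. STK11, at a log2 fold change of 0.08, holds GTCTTC, and CAB39, at -0.09, holds both.

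PGC1-alpha acts through DNA-bound partners such as the ERR nuclear receptors, so the 14 RefSeq promoter windows of the 9 genes (300 bases each) were searched on both strands. PRKAG2, which was outside the main test, gave 5 of the 14 windows. The ERR element TCAAGGTCA was found in 0 of 14, against 0.35% of all 35116 windows, and the cAMP response element TGACGTCA in 0 of 14, against 1.85%. At such low shares, 14 windows would seldom hold a match, so no conclusion is drawn from these counts of 0. The half-site AAGGTCA, which is contained in the ERR element, was found in 1 of 14, in a PRKAG2 window, against 3.92%. The promoters of the 9 genes had a median G and C content of 71.8%, against 58.7% over all windows.

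The rest of the pathway was read from 7 lists of 82 genes, of which 72 were tested. Of these 21 were higher, 13 were lower and 38 did not pass, so that 47.2% were called against 48.1% of all genes. By direction, 25.6% of all genes were higher and 22.5% lower, and the counts of each list below stand beside those shares. The share called ran from 27.3% in the metabolic substrates to 66.7% in the phosphatases and brakes, and no list was tested as a set. The median log2 fold change of these lists ranged from -0.06 to 0.16, beside 0.007 for all tested genes.

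**Figure D4:**
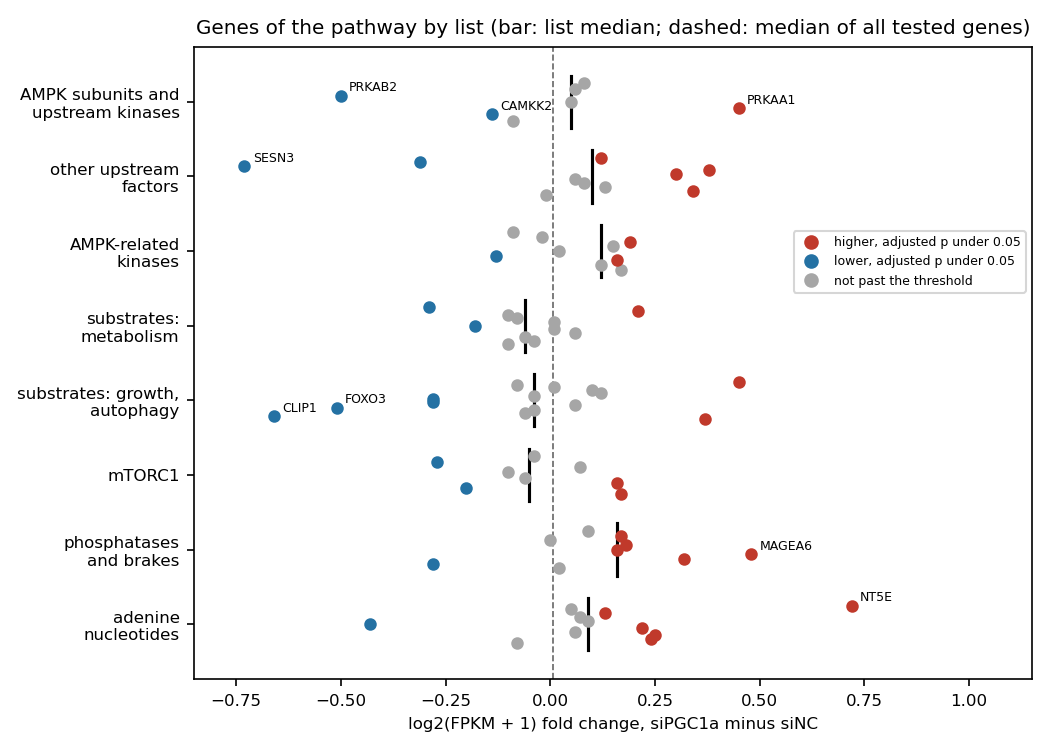
Log2(FPKM + 1) fold changes, siPGC1a minus siNC, of the tested genes of each list (points: red higher, blue lower, grey not past an adjusted p of 0.05), with the list median as a bar and the median of all tested genes as a dashed line. Genes called in opposite directions stand in every row, with SESN3 lowest at -0.73 and NT5E highest at 0.72.

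Other upstream factors had 4 genes higher, 2 lower and 4 not past among 10 tested (median 0.10). The sestrins, stress proteins that promote AMPK activity, did not move together: SESN1, singled out after its values were seen, rose 1.27-fold (limma adjusted p = 0.0027) beside SESN2. SESN3, the most abundant, fell to 18.8, 15.6 and 17.1 FPKM in siPGC1a libraries, against 30.8, 28.3 and 28.2 FPKM in siNC libraries (log2 fold change -0.73, SE 0.065, limma adjusted p = 2.71e-05). SESN2 rose to 12.5 ± 0.535 FPKM in siPGC1a, against 9.38 ± 0.296 FPKM in siNC (SD, n = 3 each, limma adjusted p = 0.000175). STRADB, a pseudokinase partner of LKB1, fell to 4.98 ± 0.312 FPKM in siPGC1a, against 6.41 ± 0.326 FPKM in siNC (limma adjusted p = 0.00144). STRADA, the other STRAD gene, stood at 0.304 FPKM in siPGC1a and 0.322 FPKM in siNC, a level that is uncertain because an annotated gene on the same strand overlaps it by 1970 bases. SESN1, SESN3 and STRADB overlap genes on the other strand.

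The AMPK-related kinases, which LKB1 also activates, had 2 genes higher, 1 lower and 6 not past of 9 tested (median 0.12). SIK2, a salt-inducible kinase, rose to 10.3 FPKM in siPGC1a, against 8.92 FPKM in siNC (limma adjusted p = 0.00588), and MARK3, a microtubule affinity-regulating kinase, 1.13-fold (limma adjusted p = 0.00704). MARK4 was lower by a ratio of 0.901 (limma adjusted p = 0.0421), a call lost in 7 of 14 other settings. GEMIN7, on the same strand, overlaps MARK4 by 90 bases, and PPP2R1B, on the other strand, overlaps SIK2 by 150 bases. SIK1 was listed at 0 in every library.

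Substrates of AMPK in lipid and glucose metabolism had 1 higher, 2 lower and 8 not past of 11 tested (median -0.06). TXNIP, a brake on glucose uptake that AMPK marks for degradation, fell to 159 ± 3.79 FPKM in siPGC1a, against 195 ± 4.87 FPKM in siNC (SD, n = 3 each, limma adjusted p = 0.000187). PFKFB3, which makes an activator of glycolysis, fell to a ratio of 0.872 (limma adjusted p = 0.00427), and TBC1D4, a regulator of glucose transporter traffic, rose 1.17-fold (limma adjusted p = 0.0112), a call lost without the filter on low genes (adjusted p = 0.0545).

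Substrates in growth control, autophagy and transcription had 2 higher, 4 lower and 8 not past of 14 tested (median -0.04). CLIP1, a microtubule plus-end protein, fell to 3.19, 3.17 and 3.04 FPKM in siPGC1a libraries, against 5.46, 5.37 and 5.70 FPKM in siNC libraries (log2 fold change -0.66, limma adjusted p = 8.2e-06). FOXO3, a stress-responsive transcription factor, fell to 4.04 ± 0.171 FPKM in siPGC1a, against 6.17 ± 0.152 FPKM in siNC (SD, n = 3 each, limma adjusted p = 3.37e-05). VASP, an actin regulator, rose 1.39-fold (limma adjusted p = 0.000139) and BECN1, an autophagy initiator, 1.32-fold (limma adjusted p = 0.000142), and BECN1 and CLIP1 overlap genes on the other strand.

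The mTORC1 list had 2 higher, 2 lower and 4 not past of 8 tested (median -0.05). AKT1S1, an inhibitory partner of mTORC1, rose 1.14-fold (limma adjusted p = 0.0107) and EIF4EBP1, the translation repressor that mTORC1 switches off, 1.12-fold (limma adjusted p = 0.0194). RPS6KB1, a ribosomal S6 kinase, fell to a ratio of 0.783 (limma adjusted p = 0.00515) and DEPTOR, another mTOR inhibitor, to 0.794 (limma adjusted p = 0.0394). EIF4EBP1 lost its call in 5 of 14 other settings and DEPTOR in 8 of 13. Exons of AKT1S1 and RPS6KB1 overlap those of genes on the same strand, and exons of AKT1S1 and DEPTOR those of genes on the other strand.

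Phosphatases, brakes and ubiquitin ligases of AMPK had 5 higher, 1 lower and 3 not past of 9 tested (median 0.16). MAGEA6 and MAGEA3, cancer-testis genes whose products steer the ligase TRIM28 onto alpha-1, had the smallest adjusted p among the rises. MAGEA6 stood at 36.6 ± 1.25 FPKM in siPGC1a and 26.0 ± 0.27 FPKM in siNC (SD, n = 3 each, limma adjusted p = 1.83e-05), and MAGEA3 at 34.7 ± 0.337 FPKM in siPGC1a and 27.7 ± 0.483 FPKM in siNC (limma adjusted p = 0.000117). Both are uncertain because the genes are near-identical and the counting may have split their reads. FNIP2, a partner of folliculin, fell to a ratio of 0.781 (limma adjusted p = 0.0011).

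Genes of adenine nucleotide balance had 5 higher, 1 lower and 5 not past of 11 tested (median 0.09). NT5E, the surface enzyme that turns AMP into adenosine, rose to 56.8, 54.9 and 58.9 FPKM in siPGC1a libraries, against 35.8, 32.4 and 33.8 FPKM in siNC libraries (log2 fold change 0.72, limma adjusted p = 4.77e-06). AK4, a mitochondrial adenylate kinase, fell to 3.80 ± 0.185 FPKM in siPGC1a, against 5.49 ± 0.297 FPKM in siNC (SD, n = 3 each, limma adjusted p = 0.000172).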

How the data were processed

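The deposited values are FPKM, computed by the authors per gene and library. The submitters' processing notes list STAR, Picard, featureCounts, DESeq2 and hg19, and give neither version nor role for any. Whether counting used strand is not stated. The 9 genes and all lists were chosen with earlier results of these data known. Genes averaging at least 1 FPKM, and PPARGC1A regardless, were tested on log2(FPKM + 1), a scale that understates changes of low genes. The test was limma's moderated test with an intensity trend (limma 3.58.1, R 4.3.3), without a replicate block, and p-values were adjusted by Benjamini-Hochberg over 12020 genes at a threshold of 0.05. Exact permutation tests (SciPy 1.17.1) of 3 against 3 libraries cannot go below 0.1. The text names the 9 genes, PPARGC1A, per list up to 2 called genes in each direction with the smallest adjusted p, and the 3 genes most correlated with the called gene of smallest adjusted p. A few items that this rule or the site search gave are not reported here. The fit was also run on simulated data with independent noise and few changed genes. In the data themselves 48.1% of genes were called, so that run does not vouch for the calls given here.

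Depth was recovered from FPKM steps of short miRNA genes with GENCODE v29 lengths, and 91.1 to 91.7% of values of at most 20 reads came out whole within 0.1 read. Read numbers are approximate, since the authors' gene lengths were not at hand. GENCODE v29 and RefSeq GRCh38.p14 are of another build than the table and served for lengths, sequences and overlaps. Comparing recovered reads between libraries gave no duplicates, with chi-square values per degree of freedom from 2.18 to 7.19 for pairs in the same group and from 34.7 to 46.8 for pairs across groups. Alternatives covered pseudocount, filter, scaling, sample weights, a replicate block and leaving out each library.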

Additional observations from a re-analysis of the deposited data

How the results depend on the processing

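Of 445 recomputed fold changes of 34 named genes, 421 kept their direction and side of the threshold, 24 lost a call and 0 reversed. PRKAA2 and PRKAG2, outside the main test, had no side of the threshold to keep. They were counted among the 421 because their fold changes without the filter stayed the same. Also, 29 recomputed counts of genes moved by over 1.5 times. PRKAA1 and PRKAB2 kept their calls in all 14 alternatives, and CAMKK2 lost its call in 3, each leaving out 1 library. A stricter filter left 1607 genes lower, of fewer tested. It also gave 0 lower in the mTORC1, brakes and adenine nucleotide lists, whose genes called lower (RPS6KB1, DEPTOR, FNIP2 and AK4) averaged under 5 FPKM and were not tested there. Without a filter, the related kinases had 0 lower, the metabolic substrates 0 higher and the mTORC1 list 1 higher and 1 lower. The metabolic substrates had 4 lower with equal sums and 4 with quantile scaling, and the mTORC1 list 1 higher with quantile scaling. The causes of the changes under the other settings were not tested. Leaving out each library gave 1 to 2 AMPK genes lower, 2 to 4 related kinases higher and 0 to 1 lower, and 1 to 2 mTORC1 genes in each direction.

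With the replicate number as a block, 3253 genes were higher and 2826 lower, the related kinases had 0 lower and the mTORC1 list 1 lower. The main fit had no such block because no label says that a replicate number marks a shared culture or day. Same-numbered libraries correlated in their deviations at 0.08, 0.26 and -0.06. The 0.26, for replicate 2, was the highest of any pair across the groups, but not every library correlated best with its own number. About 41 to 51 reads per library stood behind PRKAG2, the fewest of the 9 genes.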
